A study of Mus musculus with 12 samples.

Results

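The extracellular matrix of the embryonic cortex and the receptors that bind it were followed through neurogenesis by the genes of collagens, laminins, nidogens, integrins, ADAMTS proteases and ADAMTS-like proteins, hyalectans and their link proteins, tenascins, reelin and fibronectin. The rule for members used gene symbols and no measured value. A peak belonged to the set when the authors' annotation named such a gene as the nearest, which gave 463 of 55085 peaks of 5-methylcytosine (5mC) and 390 of 47478 peaks of 5-hydroxymethylcytosine (5hmC). Together these peaks named 106 of 16293 genes, of which 85 had peaks of both marks, 7 had 5mC peaks only and 14 had 5hmC peaks only. One member, Itgbl1, shares its symbol pattern with the integrins but encodes an integrin beta-like protein and not an integrin subunit. Col3a1, a collagen of loose connective tissue, was nearest to no peak and has no value here.

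Cells came from the cortex of E14.5 mouse embryos that were double heterozygous for Btg2-RFP and Tubb3-GFP, and all 3 cell types came from such embryos. Proliferating progenitors (PP), labelled neuronal stem cells (Btg2-/Tubb3-), carried neither reporter. Differentiating progenitors (DP), labelled neurogenic progenitors (Btg2+/Tubb3-), carried RFP only, and neurons (Tubb3+) carried GFP irrespective of RFP. The gate for PP thus takes any cell without a reporter. The 12 samples were 1 antibody-treated (IP) and 1 input sample for each cell type and mark, and in the immunoprecipitation of methylated or hydroxymethylated DNA, (h)MeDIP, the 3 cell types were barcoded and pooled for 1 pull-down. The tables give 1 mean log2 level of normalized reads per peak and cell type, with no replicate values, counts or input signal, so no spread or depth can be given for a level and no difference could be tested.

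The matrix of the embryonic cortex is made by several cell types. Radial glia, vessels and meninges build the basement membrane at the pial surface and around capillaries from laminins, nidogens and type IV collagen, and radial glia hold on to it through integrins. Between the cells lies a loose matrix of hyaluronan with hyalectans and tenascins, which ADAMTS proteases cut, while reelin, secreted by Cajal-Retzius cells of the marginal zone, acts on migrating neurons through the receptors Vldlr and Lrp8 and the adaptor Dab1. 5mC is a mark laid on cytosines, mostly next to a guanine (CG), and 5hmC is its oxidized form made by Tet enzymes.

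To show how CG are spaced at the starts of genes whose expression moved, the 250 bases before a RefSeq start are given for 5 members. The assembly is GRCm38.p6, also called mm10, and each window is written 5′ to 3′ on the strand of the gene, with every CG in capitals. For Adamts17 and Lamb2 the RefSeq gene spans begin at 66839699 and 108479847, so the last bases of these windows lie inside the span. Reln and Adamts17 were shown because their expression rose from PP to neurons, Tnc and Lamb2 because it fell, and Col8a1 because its window was the only one among the members that overlapped a peak. Their positions were chr5:22344706-22344955 on the minus strand, chr7:66839485-66839734 on the plus strand, chr4:64047016-64047265 on the minus strand, chr9:108479612-108479861 on the plus strand and chr16:57754738-57754987 on the minus strand.
Reln: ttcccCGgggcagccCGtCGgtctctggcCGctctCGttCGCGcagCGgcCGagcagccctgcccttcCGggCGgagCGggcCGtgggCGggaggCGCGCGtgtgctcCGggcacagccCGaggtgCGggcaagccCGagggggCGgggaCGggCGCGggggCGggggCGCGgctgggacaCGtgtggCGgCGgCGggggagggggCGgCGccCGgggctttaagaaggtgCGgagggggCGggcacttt
Adamts17: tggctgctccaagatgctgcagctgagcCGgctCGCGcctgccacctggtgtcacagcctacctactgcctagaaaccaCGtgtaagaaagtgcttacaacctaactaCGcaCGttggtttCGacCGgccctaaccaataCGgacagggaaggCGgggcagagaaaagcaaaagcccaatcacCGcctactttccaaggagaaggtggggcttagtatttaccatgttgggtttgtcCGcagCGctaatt
Tnc: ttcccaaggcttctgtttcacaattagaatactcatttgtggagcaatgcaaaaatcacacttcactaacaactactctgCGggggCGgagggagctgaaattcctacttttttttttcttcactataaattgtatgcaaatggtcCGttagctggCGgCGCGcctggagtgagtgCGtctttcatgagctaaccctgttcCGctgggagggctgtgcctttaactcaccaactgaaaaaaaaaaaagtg
Lamb2: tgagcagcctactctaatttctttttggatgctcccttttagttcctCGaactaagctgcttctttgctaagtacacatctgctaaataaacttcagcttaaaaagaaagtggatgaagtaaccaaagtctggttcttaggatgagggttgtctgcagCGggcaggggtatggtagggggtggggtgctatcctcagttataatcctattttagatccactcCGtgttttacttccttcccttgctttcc
Col8a1: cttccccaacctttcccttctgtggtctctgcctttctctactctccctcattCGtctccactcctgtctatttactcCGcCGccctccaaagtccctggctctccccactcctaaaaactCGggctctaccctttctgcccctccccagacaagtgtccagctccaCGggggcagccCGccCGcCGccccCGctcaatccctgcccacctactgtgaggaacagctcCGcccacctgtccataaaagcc

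The Reln window held 37 CG, the Adamts17 window 13, the Tnc window 8, the Lamb2 window 3 and the Col8a1 window 10. The median was 10 CG in the 80 windows of 74 members with an entry and 6 CG in all 32851 windows, and 95.0% and 92.1% of windows held at least 1. All windows here are those of 27025 RefSeq genes, so unlike the members they take in genes that were nearest to no peak. Over the full windows of 300 bases, which also take in 50 bases after the start, no member window overlapped a 5mC peak and 1 (1.25%) overlapped a 5hmC peak, against 1.1% and 1.26% of all windows. The first 56 of the printed Col8a1 bases, with 1 CG, lay in that 5hmC peak. The E-box CAGCTG, which reads the same on both strands, was found in 21 member windows (26.2%) and in 16.3% of all windows, and CATCTG on either strand in 12 (15.0%) and in 17.2%. Median C+G content was 60.17% in member windows and 52.67% in all.

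Expression of the members was lower in neurons than in progenitors more often than was expression of all genes in the tables. Most of the basement membrane genes, the fibrillar collagens and many integrins fell, whereas Reln, Tnr, Lamb1, Vcan and a set of ADAMTS proteases rose. Expression is given on the authors' scale, which the tables do not name, as 1 value per gene and cell type from an earlier RNA-seq study of the same cell types. Changes are log2 ratios after adding 10 to both values, and rose or fell is written of a change of at least 1, which is 2-fold. From PP to neurons 51 of 106 members fell (48.1%, against 17.1% of all genes) and 22 rose (20.8%, against 17.8%), with a median change of -0.91 in members and -0.01 in all genes. From PP to DP 24 fell (22.6%, against 4.13%) and 15 rose (14.2%, against 5.62%). From DP to neurons 39 fell (36.8%, against 13.0%) and 19 rose (17.9%, against 13.9%). Of the 70 members whose highest value reached 100, 43 (61.4%) were highest in PP, 8 in DP and 19 (27.1%) in neurons, whereas 34.0% of the 11326 genes at that level were highest in PP and 47.7% in neurons. A steady decline from PP through DP to neurons was seen in 41 of the 70 (58.6%, against 28.9%). Since the values come from sorted populations, fewer cells of a type and less RNA per cell cannot be told apart.

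**Figure D1:**
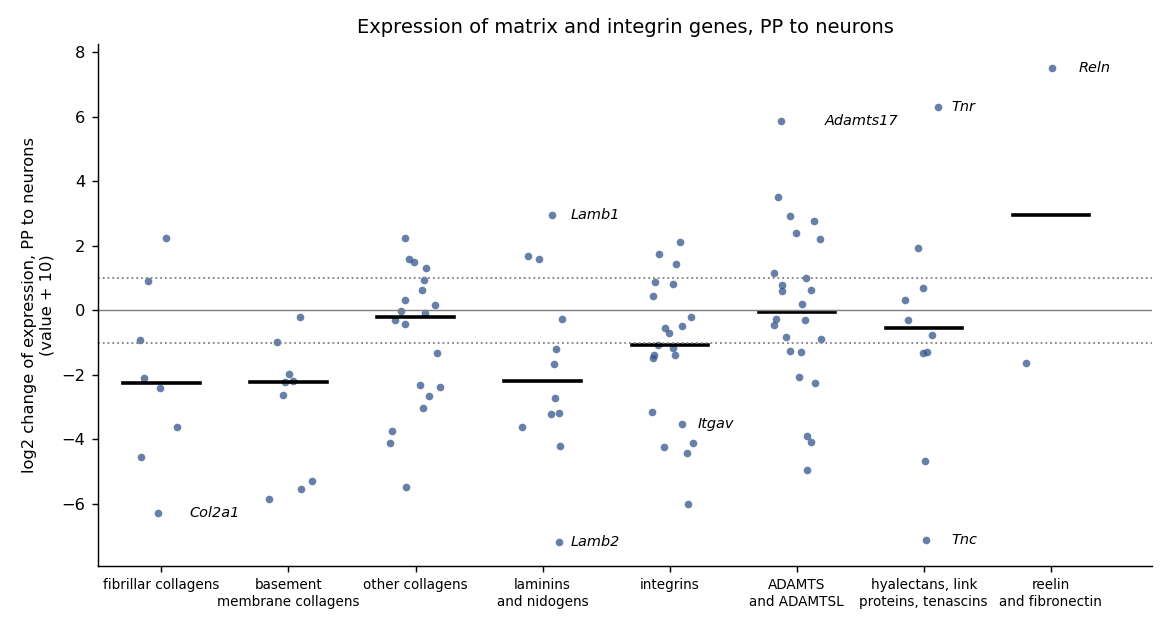
Each point is 1 of 106 genes, placed by its group on the x axis and by its log2 change of expression from PP to neurons, after adding 10 to both values, on the y axis. Bars are group medians and dotted lines mark 2-fold. Fibrillar collagens, basement membrane collagens and laminins with nidogens had medians of -2.26, -2.22 and -2.19, whereas the ADAMTS group was centred at -0.05 and spread to both sides.

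Of 9 basement membrane collagens 7 fell from PP to neurons and none rose. Col4a1 and Col4a2, which form the main type IV collagen network, started at 2391 and 1493 in PP, were at 688 and 434 in DP and ended at 381 and 370.0 in neurons, so most of the decline came before the neuronal stage. Col4a5 and Col4a6, whose chains form another type IV network, kept their expression longer, with 2488 and 824 in PP, 1698 and 638 in DP and then 43.9 and 11.2 in neurons, and fell only from DP to neurons. Col18a1, the collagen that releases endostatin, had 3780.1 in PP, 2522 in DP and 55.8 in neurons. Col4a5, Col4a6, Itga5, Itgb8, Itga3, Itga4, Adamts2, Adamts4, Adamts5, Adamts9, Col9a2, Col22a1 and, outside the symbol rule, Serpinh1, Gpc2 and Mmp24 were named after their values had been seen.

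Laminins and nidogens fell in 8 of 12 genes and rose in 3. Lamb2 had 9009 in PP, 4824 in DP and 51.9 in neurons, a log2 change from DP to neurons of -6.29 and the largest fall of that step among members reaching 100. Its relative Lamb1 ran the other way, with 544 in PP, 1724 in DP and 4296 in neurons. Lama1 had 3691, 1797 and 547, and Lamc1, the gamma chain common to most laminins, had 5623, 3674 and 2456 in the same order. Nid1, which links laminin to type IV collagen, had 528 in PP, 102 in DP and then 33.4 in neurons and was among the 3 largest falls from PP to DP, at -2.27.

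Fibrillar collagens fell in 5 of 8 genes and rose in 1. Col2a1, best known from cartilage, had 15340 in PP, 10723 in DP and 188 in neurons, a change of -5.76 from DP to neurons. Col1a1, a product of fibroblasts, had 463 in PP, 50.6 in DP and then 28.2 in neurons, the largest fall from PP to DP, at -2.97. Of the 20 other collagens 8 fell and 4 rose. Col6a3, which forms microfibrils, had 170.5, 24.3 and 3.4, and Col14a1, a collagen that sits on fibrils, peaked in DP with 25.3 in PP, 204 in DP and 16.5 in neurons.

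Markers of cell types outside the neural lineage were detected as well, most of them with their highest value in PP, and their part in the falls of Col1a1, Col4a1, Col4a2, Col6a3 and Nid1 was not tested. The summed values of 8 endothelial markers were 652 in PP, 433 in DP and then 169 in neurons, and 7 of 8 were highest in PP. Those of 5 pericyte markers were 1782, 449 and 116, with all 5 highest in PP. Those of 4 of 5 listed microglial markers were 357, 210 and 78.8, and those of 3 of 5 listed markers of meningeal fibroblasts were 190, 211 and 35.3. Of these markers only Aldh1a2 was listed at 0, in neurons. In the same expression values all 6 measured PP markers were highest in PP, all 5 DP markers in DP and all 6 neuronal markers in neurons. These lists include Btg2 and Tubb3, the genes of the sorting reporters. The values come from the earlier RNA-seq study, so they do not check the cells used for 5mC and 5hmC.

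Among integrins 11 of 21 genes fell and 3 rose, Itgbl1 being 1 of the 3. Itgb1, the beta subunit shared by most integrins that bind matrix, had 7760 in PP, 7584 in DP and then 5582 in neurons and stayed within 2-fold. Several of its partners and other integrins fell or rose. Itga6, a laminin receptor of radial glia, had 5575, 3351 and 2637, and Itgav had 2736, 1571 and 227. Itga5, the fibronectin receptor, had 1414 in PP, 790 in DP and then 12.1 in neurons, and Itgb8, which pairs with Itgav, had 7078, 3405 and 403. Itga3, another laminin receptor, rose from 158 in PP through 334 in DP to 721 in neurons, and Itga4 peaked in DP with 178, 1060 and 623. Fn1, the ligand of Itga5, had 15515, 14861 and 5024.

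ADAMTS and ADAMTSL genes split almost evenly, with 8 of 24 rising and 7 falling from PP to neurons. Adamts17 had 57.3 in PP, 551 in DP and then 3923 in neurons, the largest rise from PP to DP, at 3.06. Adamts3, which can cleave reelin, dipped in DP, with 2421 in PP, 888 in DP and 12696 in neurons, a change of 3.82 from DP to neurons. Adamts2, Adamts4 and Adamts5 rose as well, with log2 changes from PP to neurons of 3.51, 2.77 and 2.21. Adamts9 went from 997 in PP to 855 in DP and 22.7 in neurons. Adamts1 had 2807, 1622 and 3186, and Adamts20 had 2038, 1289 and 1138, and neither passed 2-fold from PP to neurons.

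Reln rose more than any other member. Its values were 186 in PP, 1388 in DP and 36007 in neurons, log2 changes of 2.84 and 4.69 over the 2 steps. Lhx1, Lhx5 and Calb2, further markers of Cajal-Retzius cells, were also highest in neurons, at 448, 394 and 391.8 against 1.5, 3.2 and 2.8 in PP, as were Gad1, Dlx1, Dlx2 and Dlx5 of interneurons, whose summed values were 971 in PP, 3616 in DP and then 10576 in neurons. Their part in the rise of Reln was not tested. Tnr, a tenascin of neurons and oligodendrocytes, rose only on entry into neurons, with 9.1, 14.9 and 1504, whereas Tnc, the tenascin of radial glia, had 13837, 6688 and 88.4. Among hyalectans, Vcan had 9696, 13834 and 37043, Ncan 32699, 29256 and 52741 and Bcan 4876, 4444 and 181. Hapln1, a link protein that ties hyalectans to hyaluronan, was low in all 3 cell types, at 16.7, 1.0 and 1.0.

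**Figure D2:**
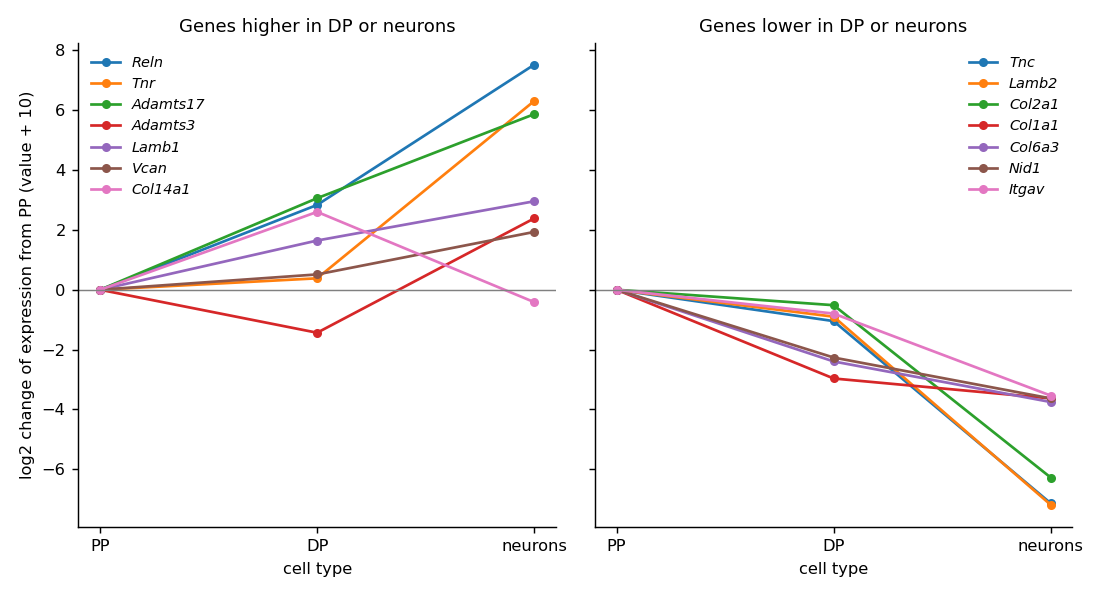
Lines follow 14 genes through PP, DP and neurons on the x axis, and the y axis is the log2 change of expression from PP after adding 10 to both values. Reln and Adamts17 were already higher in DP, Tnr was not, Adamts3 dipped in DP, and on this log2 scale most of the fall of Tnc, Lamb2 and Col2a1 came between DP and neurons.

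Other genes of the same pathways, which the symbol rule leaves out, were read from a list of 69 genes, of which 64 were nearest to a peak. From PP to neurons 25 fell (39.1%, against 17.1% of all genes) and 12 rose (18.8%, against 17.8%). All 3 genes through which reelin acts rose: Vldlr had 1926 in PP, 951 in DP and 5928 in neurons, Lrp8 10320, 36363 and 27155, and Dab1 7336, 3592 and 18464. Of 9 other matrix receptors 5 fell and none rose, and of 12 genes that process collagen 7 fell and none rose, among them Serpinh1, the collagen chaperone, with 11569 in PP, 8308 in DP and 1265 in neurons. Of 8 heparan sulfate proteoglycans 5 fell and 1 rose, Gpc2, with 5938, 19348 and 41068. Matrix metalloproteases and their inhibitors moved both ways, with 4 of 12 rising and 3 falling. Mmp24 was among those that rose, with 83.8 in PP, 1030.0 in DP and 6085 in neurons. Of 8 integrin adaptors 2 fell and 1 rose, of 3 hyaluronan synthases 1 fell, and of 9 matricellular genes 3 rose and 2 fell.

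The members' 5mC and 5hmC peaks changed about as often as peaks of all genes did. A change at a peak is the difference of its log2 levels, centred on the median of all peaks of that mark, and gained or lost is written of a centred change of at least 1. Centring matters for 5mC, whose median over all peaks moved by -0.18 from DP to neurons, and little for 5hmC, where it moved by -0.02. For 5mC, 4 member peaks gained (0.864%, against 0.659% of all peaks) and 3 lost (0.648%, against 0.96%) from PP to DP. From DP to neurons 4 gained (0.864%, against 0.704%) and 14 lost (3.02%, against 3.3%), and over the whole course 4 gained (0.864%, against 0.677%) and 21 lost (4.54%, against 4.0%). For 5hmC, 25 gained (6.41%, against 5.07%) and 3 lost (0.769%, against 0.56%) from PP to DP. From DP to neurons 30 gained (7.69%, against 8.03%) and 3 lost (0.769%, against 1.19%), and over the whole course 53 gained (13.6%, against 14.2%) and 1 lost (0.256%, against 1.24%). Apart from the scarce 5hmC losses, these shares lie near those of all peaks.

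**Figure D3:**
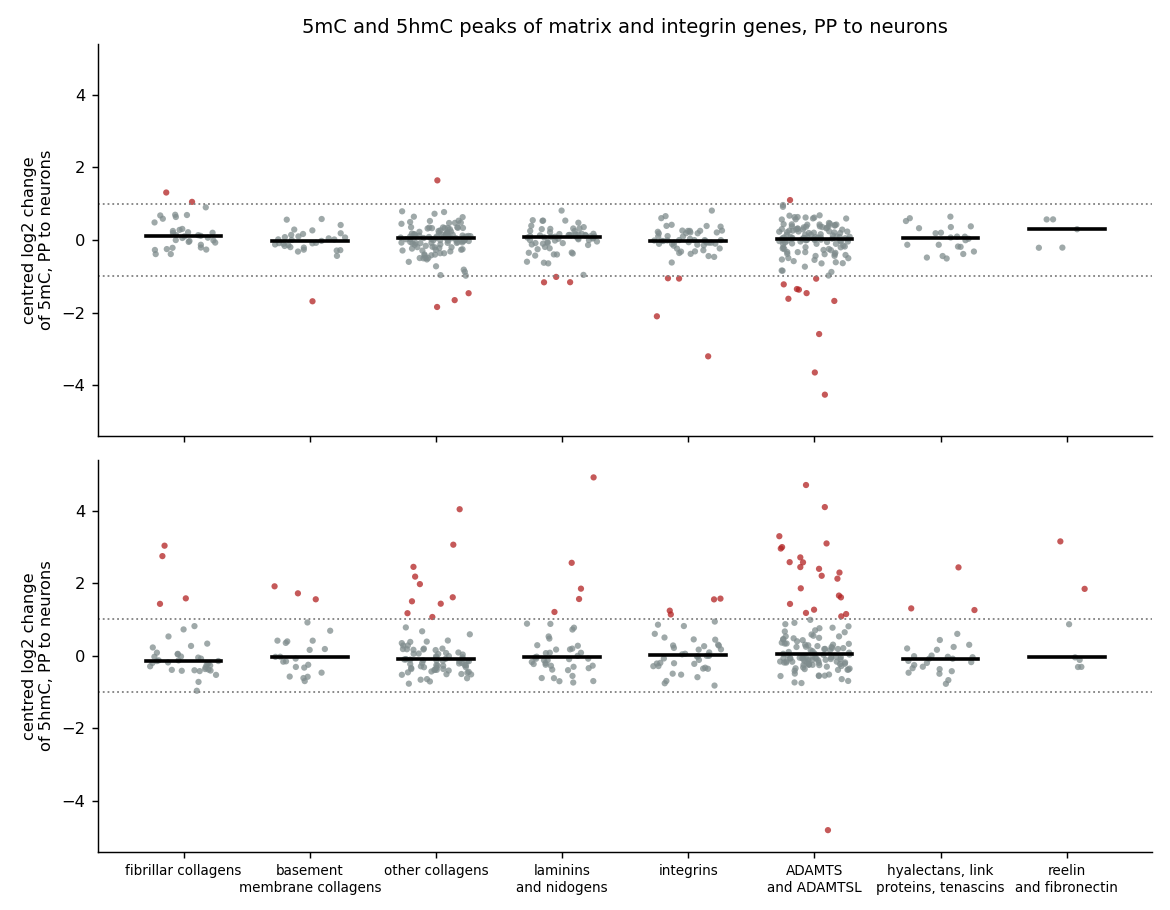
Each point is 1 of 463 5mC peaks (top) or 390 5hmC peaks (bottom), by the group of its nearest gene on the x axis and by its centred log2 change from PP to neurons on the y axis. Red points passed 2-fold (dotted lines) and bars are medians, which lie between -0.14 and 0.30 in every group of both marks. The red points lie mostly below the line for 5mC and above it for 5hmC, and the ADAMTS group, with 132 of the 463 and 127 of the 390 peaks, holds 10 of 21 losses of 5mC and 22 of 53 gains of 5hmC.

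In position the members differed from peaks at large. Of member peaks, 278 of the 5mC peaks (60.0%, against 40.2% of all) and 205 of the 5hmC peaks (52.6%, against 36.2%) lay inside the gene. Within 2 kb of a start lay 11 of the 5mC peaks (2.38%, against 6.14%) and 16 of the 5hmC peaks (4.1%, against 6.63%). The genes are long, with a median RefSeq length of 81.2 kb in the 106 members and of 21.1 kb in the 13654 genes of the tables that could be matched, and length was not adjusted for. Across the 106 genes the number of peaks followed length weakly (Spearman's rho 0.29, a description across genes). Levels were alike: member 5mC peaks had medians of 5.03, 5.05 and 4.88 in PP, DP and neurons against 5.06, 5.05 and 4.87 in all peaks, and member 5hmC peaks had 4.73, 4.76 and 4.8 against 4.72, 4.71 and 4.75.

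Within 2 kb of a start by the authors' annotation, few peaks passed 2-fold from PP to neurons. The 11 5mC peaks and 16 5hmC peaks there were too few to set the members apart from all genes. The 11 5mC peaks changed by between -0.40 and 0.37, and none passed 2-fold. Of the 3380 such peaks of all genes 3.49% lost and 0.503% gained, so a count of 0 among 11 lies near these shares. After centring, at any size of change, 3 of the 11 were lower in neurons than in PP (27.3%, against 48.6%). Of the 8 at genes whose expression fell, 2 were then lower and 6 higher. These counts rest on the centring, because the median over all 5mC peaks moved by -0.17 from PP to neurons. Without it more of the 11 were lower in neurons, among them Col22a1 (5.39 in PP and 5.24 in neurons) and Col7a1 (4.90 and 4.74). Both such peaks of Lamb2, 743 bp and 1528 bp into the gene, held their level, with 5.24 in PP, 4.75 in DP and 5.31 in neurons at chr9:108480545-108480667 and 7.12, 7.13 and 7.07 at chr9:108481321-108481461, although its expression fell. Of the 16 5hmC peaks 1 gained (6.25%, against 12.1% of 3147), upstream of Col9a2 at chr4:121039077-121039267, with 4.17, 4.65 and 5.26. After centring, at any size of change, 9 of the 16 were lower in neurons than in PP (56.2%, against 49.1% of the 3147). At 8 of the 16 genes expression fell, and there centred 5hmC was lower at 5 and higher at 3, none past 2-fold. At 3 of the 5 it was lower at each step. Itga6 had 4.46, 4.05 and 3.56 at chr2:71745904-71746086, Lamc1 had 5.17, 4.77 and 4.35 at chr1:153333071-153333261 and Itgav had 4.79, 4.45 and 4.01 at chr2:83726301-83726434. RefSeq places the Itga6 peak 40.8 kb outside its gene span, and likewise the 5hmC peak near the annotated start of Adamts20 32.9 kb outside. The peak over the Col8a1 window shown above, chr16:57754932-57755123, had 6.09, 5.78 and 5.55.

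The 21 peaks that lost 5mC from PP to neurons were spread over 13 genes, with 4 at Adamts20 and 4 at Itga9, and 12 lay inside a gene, 7 upstream and 2 downstream. Their median level went from 4.74 in PP through 4.45 in DP to 3.16 in neurons, so most of the decline came after DP. Among peaks whose highest level reached 5, the largest losses from DP to neurons included those at Itga9 and Adamts7. The Itga9 peak at chr9:118701197-118701312, 94.6 kb into the gene of an alpha subunit that pairs with Itgb1, had 5.32 in PP, 5.50 in DP and then 1.94 in neurons. The Adamts7 peak at chr9:90182527-90182659, inside a protease gene, had 5.01, 4.7 and 3.16. Lamc1 lost 5mC 2.97 kb upstream at chr1:153335679-153335830, with 4.62, 4.42 and 3.29.

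From PP to DP 5mC was steadier, and at that level no member peak lost it by 2-fold. The 3 largest declines were at Col4a3 (chr1:82605955-82606084, with 5.67 in PP, 4.7 in DP and 3.80 in neurons), Col23a1 and Col8a1. At the latter pair the level in neurons was again close to that in PP or above it: the Col23a1 peak at chr11:51345909-51346053 had 5.06, 4.18 and 4.98, and the Col8a1 peak at chr16:57712762-57712986 had 4.83, 4.01 and 5.01. Both were also among the 3 largest increases from DP to neurons, with Col6a5 at chr9:105971466-105971636, which had 4.78, 4.52 and 5.25. At Col23a1 and Col8a1 the decline and the increase rest on the same DP level and are not separate observations. The 3 largest increases from PP to DP were at Adamts5 (chr16:86034986-86035113, with 4.05, 5.14 and 4.8), Lama1 (chr17:67741892-67742059, with 4.06, 5.05 and 4.7) and Bcan (chr3:88010062-88010272, with 4.64, 5.54 and 5.07).

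Gains of 5hmC were more numerous than losses of 5mC. The 53 peaks that gained from PP to neurons belonged to 31 genes, and 33 lay inside a gene, 16 upstream and 4 downstream. Their median level went from 3.30 in PP through 4.23 in DP to 5.25 in neurons, against 4.73, 4.76 and 4.8 in all member peaks, a difference that the choice of peaks by their rise in part fixes. Every one of the 53 was higher in DP than in PP and higher in neurons than in DP after centring, with median steps of 0.95 and 1.02. Of the 21 peaks that lost 5mC, 14 were lower at each step. Choosing peaks by their change over the whole course favours such steps, and no share over all peaks is given. Adamts20 held 7 of the 53 gains, Col23a1 held 4 and Adamts17 and Adamts18 held 3 each. At 4 of the 53 the PP level was below 1, that is below 2 normalized reads, and the size of such a gain is poorly determined.

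The largest gains from PP to DP included those at Adamts20 and Adamts7. The Adamts20 peak at chr15:94214614-94214745 had 0.67, 2.53 and 5.29 in PP, DP and neurons, and the Adamts7 peak at chr9:90182511-90182615 had 2.58, 4.36 and 5.07. From DP to neurons the largest gains were at that Adamts20 peak, at Adamts20 again (chr15:94366321-94366437, with 2.47, 3.55 and 5.39) and at Col24a1 (chr3:145383375-145383527, with 2.21, 2.31 and 5.16), a fibrillar collagen. The Col24a1 peak thus gained in the last step alone. Declines in peaks reaching a level of 5 were smaller, and only that at Col13a1 passed 2-fold. From PP to DP the 3 largest centred changes were at Adamts12 (-0.86), Lama3 (-0.56) and Adamts20 (-0.55), and from DP to neurons at Col13a1 (-1.02), Col11a1 (-0.75) and Col12a1 (-0.73).

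Gains of 5hmC were found both at genes whose expression rose and at genes whose expression fell. The single Reln peak, 5hmC 2.89 kb into the gene at chr5:22341737-22341891, had 3.64 in PP, 4.25 in DP and then 4.42 in neurons and did not pass 2-fold, and Reln had no 5mC peak. Tnr had 12 5hmC peaks and no 5mC peak, and 2 of the 12 gained from PP to neurons: chr1:159773809-159774085 with 3.41, 4.36 and 5.77, and chr1:159684032-159684313 with 4.22, 5.27 and 5.45. Its other peaks stayed between -0.67 and 0.24. The authors' annotation placed the second peak 53.3 kb upstream of Tnr, but it lies within the longer RefSeq gene span. Tnc, whose expression fell, gained 5hmC 29.2 kb into the gene at chr4:64017788-64017940, with 4.96, 5.34 and 6.14. Col1a1, which also fell, gained 5hmC at chr11:94943050-94943193, with 3.26, 3.75 and 4.76. Lamb1, which rose, gained 5hmC at chr12:31305884-31306021, with 3.18, 3.54 and 4.66.

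Fn1 had 2 gains among 6 5hmC peaks, all of them upstream. The gains lay 70.4 kb from the start at chr1:71723483-71723599, with 1.93, 3.12 and 5.00, and 122.9 kb from it at chr1:71775932-71776142, with 3.55, 4.54 and 5.31. The 5 5mC peaks of Fn1 stayed between -0.22 and 0.57. Adamts1 gained 5hmC 55.2 kb from its start at chr16:85747828-85747960, with 4.72, 5.14 and 5.91. No peak of Ncan, Bcan, Vcan, Hapln1, Itgb1, Itga6, Itgav, Lama1, Col4a1 or Col4a2 passed 2-fold from PP to neurons in either mark. Their changes ranged from -0.82 at the Itga6 5hmC peak near the authors' start, which lies outside the RefSeq span, to 0.81 at the Lama1 5mC peak named above. The highest 5mC peaks of Vcan, Lama1 and Fn1 stayed within 2-fold: the Vcan peak at chr13:89807389-89807563 had 7.07, 7.12 and 7.22, the Lama1 peak at chr17:67747840-67747966 had 7.07, 7.12 and 7.21, and the Fn1 peak at chr1:71709886-71710032 had 7.48, 7.70 and 7.60.

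Split by expression, the share of peaks that gained 5hmC was lowest at members that fell. Of the 162 5hmC peaks at members whose expression fell from PP to neurons 12 gained (7.41%), of the 145 at members within 2-fold 27 gained (18.6%) and of the 83 at members that rose 14 gained (16.9%). Over all genes these shares were 12.4%, 13.5% and 17.2%. Losses of 5mC were found at 2 of 181 peaks of members that fell (1.1%), at 16 of 189 within 2-fold (8.47%) and at 3 of 93 of members that rose (3.23%), against 3.34%, 3.46% and 6.06% over all genes. Adamts20 and Itga9 belong to the middle class and hold 8 of its 16 losses. Across genes, Spearman's rho between the median peak change and the change of expression was 0.05 for 5mC (92 members) and 0.18 for 5hmC (99 members), and -0.09 and 0.04 over all genes.

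Where a 5mC and a 5hmC peak overlapped, both marks could be read at one place. Members had 51 such pairs in 27 genes, which are 11.0% of their 5mC and 13.1% of their 5hmC peaks, against 12.2% and 14.2% of all peaks. After centring, a lower 5mC with a higher 5hmC at any size of change was found at 18 of 51 pairs from PP to DP (35.3%, against 35.8% of all 6727 pairs). The count was 25 from DP to neurons (49.0%, against 47.2%) and 29 from PP to neurons (56.9%, against 51.5%). With both changes past 2-fold there were 8 from PP to neurons (15.7%, against 9.22%), of which 5 were at ADAMTS genes, 2 at Itga9 and 1 at Col23a1. All 17 pairs with a gain of 5hmC over that course had a lower 5mC after centring, with a median of -0.98, as did 89.7% of the 2092 such pairs among all genes. Of the 13 pairs with a loss of 5mC, 11 had a higher 5hmC (84.6%), against 92.2% of 885 among all genes.

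The pairs with the largest joint change included those at Adamts18, Adamts17, Adamts20, Itga9 and Col6a5. At Adamts18, 102 kb upstream (chr8:113950896-113951004), 5mC had 4.58 in PP, 3.40 in DP and then 1.81 in neurons while 5hmC had 1.5, 3.52 and 4.71. Inside Adamts17 (chr7:66872385-66872533) 5mC had 4.82, 4.07 and 1.0 and 5hmC had 2.47, 4.37 and 4.59. In both, 5hmC had risen by more than 2-fold in DP. At Adamts17 most of the 5mC decline followed in neurons, with centred changes of -0.75 and then -2.90. At Adamts18 5mC had itself declined past 2-fold by DP, with -1.17 and then -1.41. Inside Itga9, at the peak described above, 5hmC had 4.67, 5.77 and 6.14.

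At the Adamts20 and Col6a5 pairs 5hmC gained from PP to neurons while 5mC did not pass 2-fold after centring. Downstream of Adamts20 (chr15:94214624-94214791) 5mC had 4.20, 4.22 and 3.05 under the 5hmC gain given above, a change of -0.98 that is -1.15 without centring. Inside Col6a5 (chr9:105936918-105937118) it had 5.21, 4.91 and 4.64 while 5hmC had 0.40, 2.77 and 4.35. Expression of these genes differed in course. Adamts17 rose throughout, Adamts18 had 3723 in PP, 924 in DP and 5628 in neurons, Itga9 peaked in DP with 94.1, 252 and 61.3, and Col6a5 stayed below 50 in every cell type.

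**Figure D4:**
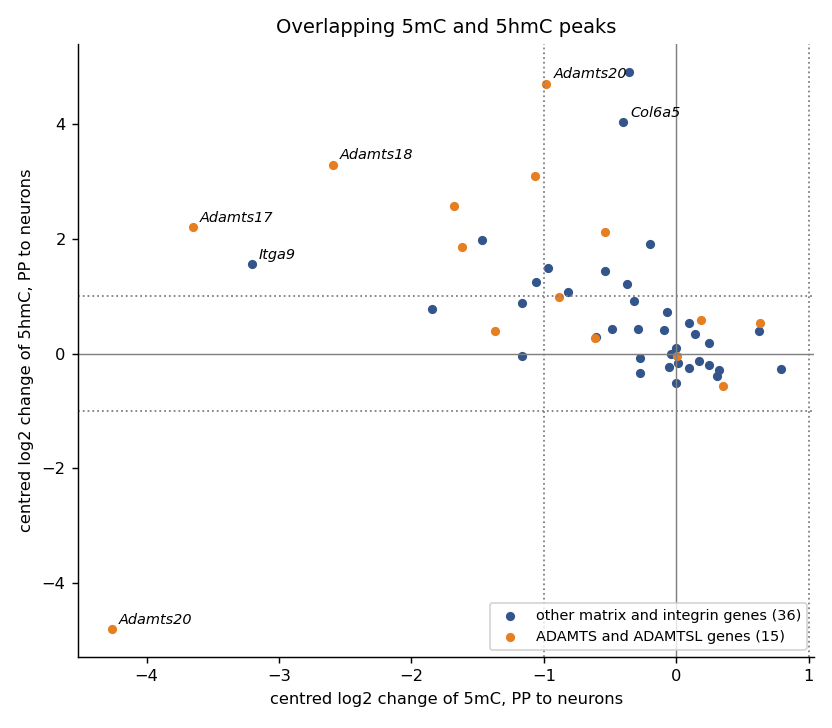
Each point is 1 of 51 overlapping pairs of member peaks, with the centred log2 change of 5mC from PP to neurons on the x axis and that of 5hmC on the y axis, and dotted lines mark 2-fold. The points run from the lower right to the upper left, with 29 of 51 at lower 5mC and higher 5hmC, and 1 Adamts20 pair lies alone at -4.26 and -4.81.

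At 1 pair both marks were lost. At chr15:94263375-94263493, 202 kb past the start of Adamts20, 5mC had 4.55 in PP, 3.75 in DP and then 0.11 in neurons and the overlapping 5hmC peak, chr15:94263367-94263536, had 4.84, 4.55 and -0.05. Both marks were thus near 1 normalized read in neurons, and this was the only 5hmC loss of the whole course among the members. Over the 51 pairs Spearman's rho between the changes of both marks was -0.59 and Pearson's r was -0.10, and without this pair they were -0.68 and -0.49. Over all 6727 pairs they were -0.51 and -0.41. These are descriptions across peaks, which share their libraries.

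Adamts20, a protease known for its part in pigment cell migration, carried more peaks than any other member, 37 of 5mC and 27 of 5hmC, and other members with many peaks were Col18a1 (13 and 9), Col9a1 (11 and 11), Itga9 (16 and 5), Adamts18 (8 and 13) and Adamts17 (13 and 8). Only 18 and 13 of the Adamts20 peaks lay inside the gene by the authors' annotation, and 17 and 12 lay downstream, up to 435 kb from the start. Its marks moved at single peaks between others that did not pass 2-fold: 7 of 27 5hmC peaks gained and 1 lost from PP to neurons, and 4 of 37 5mC peaks lost, while the median change was 0.31 and 0.05. Its expression stayed within 2-fold. Without Adamts20, 46 of 363 member 5hmC peaks gained (12.7%) and 17 of 426 5mC peaks lost (3.99%). ADAMTS and ADAMTSL genes held 22 gains in 127 5hmC peaks (17.3%), or 15 in 100 (15.0%) without Adamts20, and the other members 31 in 263 (11.8%), against 14.2% of all peaks. ADAMTS and ADAMTSL genes together held 10 losses in 132 5mC peaks (7.58%), or 6 in 95 (6.32%) without Adamts20, and the other members 11 in 331 (3.32%), against 4.0% of all peaks.

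**Figure D5:**
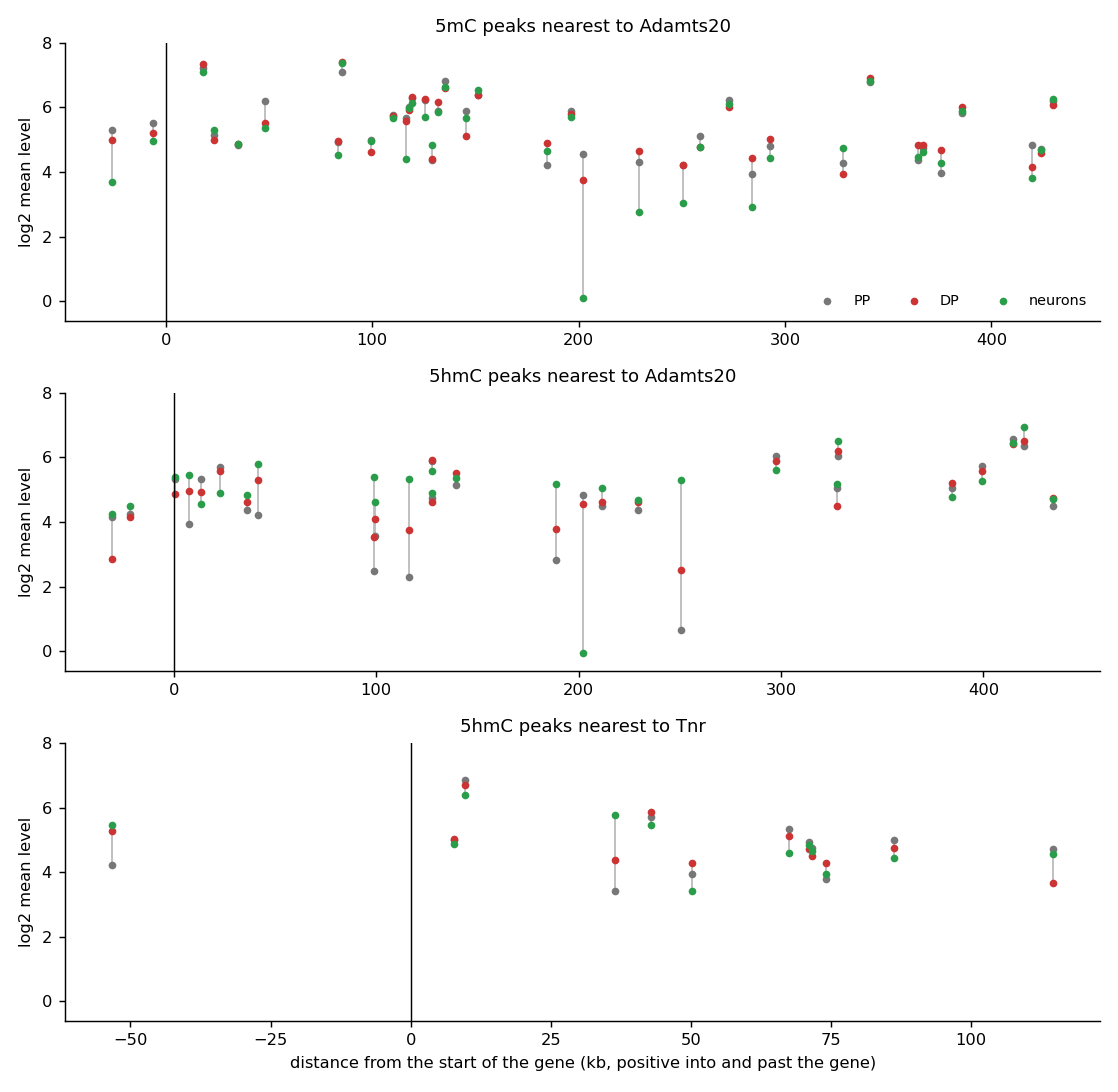
The x axis is the distance from the start of the gene in kb and the y axis the log2 mean level, with PP, DP and neurons as separate points joined per peak. Panels hold 37 5mC and 27 5hmC peaks nearest to Adamts20 and 12 5hmC peaks nearest to Tnr. Most peaks had similar levels in the 3 cell types, and single peaks gained 5hmC or lost 5mC in neurons, except 1 near 202 kb where both marks fell to about 0.

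Other genes with many peaks changed at few of them. None of the 22 peaks of Col9a1, a cartilage collagen, passed 2-fold from PP to neurons in either mark. None of the 17 of Col22a1 did so either, although its expression fell from 1452 in PP through 348 in DP to 23.0 in neurons. Col18a1 had 2 gains among 9 5hmC peaks and no change past 2-fold among 13 5mC peaks. Among the 64 pathway genes outside the symbol rule, 43 of 268 5hmC peaks gained (16.04%, against 14.2% of all) and 16 of 269 5mC peaks lost (5.95%, against 4.0%) from PP to neurons.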

How the data were processed

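5mC and 5hmC were measured by (h)MeDIP in PP, DP and neurons sorted from the E14.5 cortex, as 12 samples, 1 IP and 1 input per cell type and mark. Per the labels and the study's methods, the authors aligned reads to mm10 with BWA 0.7.8-r455, called peaks with SICER 1.1, merged those found in all replicates, left out repeats, took TMM levels from DiffBind and annotated the nearest gene with HOMER 4.7. The deposited levels are log2 means over independent replicates, which the labels do not list singly. The deposited expression score per gene and cell type comes from their earlier RNA-seq study, on a scale the tables do not name. The study plots FPKM, and whether the deposited values are on that scale is not stated. Coordinates and the signed distance to the start (bp) are printed as deposited, and the tables do not state whether starts count from 0 or 1. Columns of the authors' own comparisons (log2 folds and p-values of levels, fold changes and adjusted p-values of expression) were not used. The tables hold no depth per sample, so no interval could be given for a level, and no test was run.

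Every peak was used. Changes were differences of log2 levels centred on the median of all peaks of the mark, read at 1 (2-fold) against the share of all peaks past it. Peaks of both marks were paired at an overlap of at least 1 bp. Expression changes used a pseudocount of 10. Promoter windows and gene spans came from RefSeq for GRCm38.p6, and no genome sequence was used, so the sequence of peaks was not analysed here. Members, groups, pathway lists and markers were chosen with earlier results of these data known. Named peaks were, per mark, step and direction, the 3 largest changes among member peaks reaching a level of 5, the 6 overlapping pairs with the largest opposite change, the 5 members with most peaks (7 with ties), and 20 genes chosen by role, each by its highest peak and its peak of largest change. One gene that this rule names is not reported here. Named expression values were, per step and direction, the 3 largest changes among genes reaching 100. Alternatives were a smaller fold, no centring, level, distance, overlap and expression filters, another pseudocount and repeated rows counted once. The steps were tested on simulated data. Python 3.11.15, pandas 2.3.3, numpy 2.4.6, scipy 1.17.1 and matplotlib 3.10.9 were used.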

Additional observations from a re-analysis of the deposited data

How the results depend on the processing

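No paired analysis was possible because the tables hold 1 mean per mark and cell type, and for the same reason leaving out a replicate was not run. The tables hold no depth, and levels below 1 rest on fewer than 2 normalized reads.

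With a minimum change of 0.58 (1.5-fold), 5mC gains were 29 from PP to DP, 25 from DP to neurons and 31 from PP to neurons, and 5mC losses 26, 43 and 41. 5hmC gains were then 42, 61 and 80 and 5hmC losses 11, 32 and 25. From PP to neurons these were 6.7% and 8.86% of member 5mC peaks (5.15% and 10.4% of all) and 20.5% and 6.41% of member 5hmC peaks (22.2% and 7.91% of all). From PP to DP they were 6.26% and 5.62% for 5mC (4.72% and 5.56% of all) and 10.8% and 2.82% for 5hmC (11.3% and 4.77%), and from DP to neurons 5.4% and 9.29% for 5mC (5.23% and 9.48%) and 15.6% and 8.21% for 5hmC (16.6% and 7.22%). Falls of expression from PP to DP were then 46 and rises from DP to neurons 30. Among peaks reaching a level of 5, 5mC gains were 1 in each step and losses 0, 6 and 9, and 5hmC gains were 15, 18 and 34 and losses 0, 1 and 0. Without centring, 5mC gains were 1 from DP to neurons (0.216%, against 0.289% of all peaks) and 2 from PP to neurons (0.432%, against 0.263%). Without centring too, 5mC losses were 27 from DP to neurons (5.83%, against 4.99% of all peaks), and 5hmC losses 2 from PP to neurons (0.513%, against 1.76%). Among peaks inside a gene or within 10 kb of a start, 5mC losses were 8 from DP to neurons, 5hmC gains 15 from PP to DP, and 5hmC losses 0 from DP to neurons and 0 from PP to neurons. Among genes reaching an expression of 100, rises were 10 from DP to neurons and 12 from PP to neurons, while 39 fell over the whole course. The causes were not tested, beyond the fewer peaks or genes that each filter leaves. For the level, distance and expression filters, and for expression at 1.5-fold, no shares over all peaks or genes are given. Those counts therefore do not compare the members with the rest. A pseudocount of 1, repeated rows counted once and an overlap of 50% of the shorter peak kept every count within 1.5 times. At the peaks named for the largest changes of a step, no change over that step reversed without centring. Changes near 0 over other steps can change sign, as at the Col23a1 5mC peak from PP to neurons (0.10 centred and -0.08 not centred).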
